A study of Mus musculus with 18 samples.

Results

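Collagen genes were followed through 2 RNA-seq experiments in mouse marrow-derived mesenchymal stem cells (MSC), in which actin structure was altered by drugs and the nuclear actin-related protein Arp4 was depleted by siRNA. Members were the protein-coding rows of the count table whose mouse symbol is Col, a number, a and a number, which gave 44 of the 54347 rows and 44 of the 21803 protein-coding rows. Of these 44 genes, 29 reached 10 counts in 3 or more of the 18 libraries, 15 did not, and 4 of the 15 (Col6a6, Col9a1, Col9a2 and Col13a1) were at 0 in every library. The cells were primary MSC made from the pooled marrow of several male C57BL/6J mice, so every library shares 1 cell source, and no source used here gives the animals' age. The first experiment held untransfected cells: control, CK666 (an inhibitor of the Arp2/3 complex, which branches actin filaments) and CytoD (cytochalasin D). CytoD depolymerises actin filaments in the cytoplasm. In the nucleus, the study reported more filamentous actin with CytoD and less with CK666. The second held cells that all went through siRNA transfection before treatment: siControl (a control siRNA), siArp4 (siRNA against Arp4, whose gene is Actl6a) and siArp4_CK666 (the same siRNA followed by CK666). Each of the 6 groups had 3 libraries, described in the study's methods as distinct preparations, and drug and siRNA comparisons were made only within an experiment. The study regards the expression changes with the drugs as early ones that likely precede terminal cell identities. The questions were how CK666, CytoD and Arp4 siRNA each bear on collagen transcripts, and whether the CK666 response is the same when Arp4 is depleted.

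Collagens are extracellular proteins built from 3 chains that wind into a triple helix. Fibril-forming collagens (types I, III and V in this tissue) make the rope-like fibrils of bone and other connective tissue, type IV makes the sheet-like network of basement membranes, type VI makes beaded microfilaments around cells, and fibril-associated collagens sit on the fibril surface. Chains are modified and folded in the endoplasmic reticulum, exported in large carriers, trimmed of their propeptides outside the cell and cross-linked by lysyl oxidases.

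The helix requires a glycine at the start of every residue triplet, and the coding sequences of the members show this directly. The first 24 codons of the longest uninterrupted repeat are shown for the 3 genes used as mesenchymal markers and for Col5a3, the member with the smallest adjusted p in the siRNA experiment, because this repeat is what the family shares; capitals mark the glycine codons that open each triplet. They come from the GENCODE vM21 transcripts on GRCm38, exons joined, and lie on the plus strand at chr11:94939451-94939921 (Col1a1), chr6:4512406-4515498 (Col1a2) and chr1:45323762-45325395 (Col3a1), and on the minus strand at chr9:20801095-20801260 (Col5a3).
Col1a1: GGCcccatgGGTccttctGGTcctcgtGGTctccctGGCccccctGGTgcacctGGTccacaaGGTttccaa
Col1a2: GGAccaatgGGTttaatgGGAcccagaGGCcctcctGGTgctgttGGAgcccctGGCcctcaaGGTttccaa
Col3a1: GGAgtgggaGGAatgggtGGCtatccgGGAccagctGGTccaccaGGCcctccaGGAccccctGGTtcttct
Col5a3: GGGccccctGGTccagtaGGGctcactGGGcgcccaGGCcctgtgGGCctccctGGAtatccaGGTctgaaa
A complete coding sequence was found for all 44 genes. The longest repeat ran for 338 triplets in Col1a1, 339 in Col1a2, 344 in Col3a1 and 337 in Col5a3, and 9 genes, all of the fibril-forming family, had at least 300. In Col27a1, also placed in that family, the repeat ran for 217 triplets. It was far shorter in the network and fibril-associated families, with 40 triplets in Col4a1, 87 in Col6a1 and 32 in Col12a1.

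The start regions of 35 members were held in the RefSeq promoter table (GRCm38.p6). The 150 bases before the start are shown for Col3a1, Col5a1 and Col5a3, the table's entries with the smallest adjusted p among members called higher after Arp4 siRNA. Capitals mark, on either strand, TATAAA (the core of a promoter's start-site box), the CCAAT box, GGGCGG (a box of the GC kind) or TGANTCA (the AP-1 motif), and no match shown overlaps another. The positions are chr1:45311388-45311537 on the plus strand (Col3a1), chr2:27886275-27886424 on the plus strand (Col5a1) and chr9:20815068-20815217 on the minus strand (Col5a3).
Col3a1: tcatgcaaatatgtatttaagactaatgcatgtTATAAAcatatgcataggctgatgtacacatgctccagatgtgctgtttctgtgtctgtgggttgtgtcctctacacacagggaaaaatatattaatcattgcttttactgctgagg
Col5a1: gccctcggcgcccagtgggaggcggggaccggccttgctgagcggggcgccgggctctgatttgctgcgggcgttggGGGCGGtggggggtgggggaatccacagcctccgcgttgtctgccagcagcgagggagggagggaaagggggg
Col5a3: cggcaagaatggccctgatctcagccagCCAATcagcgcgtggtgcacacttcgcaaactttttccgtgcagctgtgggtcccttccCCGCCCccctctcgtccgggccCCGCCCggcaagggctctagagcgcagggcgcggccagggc
The 3 windows had no motif that all of them held: Col3a1 had a TATAAA match, Col5a1 a GGGCGG match and Col5a3 a CCAAT match with 2 GGGCGG matches on the opposite strand. Over the 250 bases before the start, GGGCGG was present in 57.9% of 38 collagen entries and 32.7% of all 32851 entries, CCAAT in 34.2% and 33.8%, TATAAA in 13.2% and 12.4%, and TGANTCA in 2.6% and 6.7%.

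Library totals ran from 18075610 to 24733212 estimated counts, and Actl6a served as the check of the siRNA. Its normalized counts were 720, 1127 and 841 in siControl, 48.9, 57.2 and 19.0 in siArp4, and 9.52, 22.9 and 17.9 in siArp4_CK666, so the labels held in every library. Among the siRNA groups, siControl replicate 2 stood apart: its mitochondrial share was 1.30% of counts against 2.37% and 2.66% in the other siControl libraries, its leading gene Ftl1 took 1.99% of counts, and many collagens were lowest there. The mitochondrial share was higher in every library with Arp4 siRNA, at 2.67 to 3.26% in siArp4 and 2.86 to 3.36% in siArp4_CK666, and its part was not tested. Of 10 marrow stromal markers only Thy1 was at 0 in every library, and Col1a1, Col1a2 and Col3a1 were expressed in all 18. Endothelial, epithelial and haematopoietic markers were low, in counts in 1000000 of the library. The 6 endothelial markers summed to at most 1.25, with Cdh5, Tie1 and Emcn at 0 throughout, and 4 epithelial markers to at most 0.304. The 8 haematopoietic and macrophage markers summed to between 7.41 and 19.6. Other lists were not low. In control, 4 smooth muscle and myofibroblast markers summed to 1839 to 1948, 8 adipocyte markers to 506 to 543 and 7 osteoblast markers to 9870 to 10108. The marrow stromal markers summed to 2320 to 2480 there. The 6 chondrocyte markers summed to 9.34 to 17.7 in the first experiment, 22.8 to 27.7 in siControl and 42.2 to 47.7 in the groups with Arp4 siRNA, with Acan and Hapln1 at 0 in every library; of the 2 tested, Sox9 rose with Arp4 siRNA (log2 0.83, adjusted p = 0.00115), and its part was not tested. In bulk RNA, fewer expressing cells and less RNA per cell cannot be told apart.

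The 44 collagen genes together held 1.62, 1.79 and 1.72% of all counts in control, 0.937, 1.19 and 1.196% in CK666, and 1.77, 1.88 and 1.86% in CytoD. The CK666 libraries lay below all control and CytoD libraries. CK666 replicate 1, the lowest, stood apart from replicates 2 and 3 in its mitochondrial share as well, at 1.36% against 1.88 and 1.85%. Over all genes compared, its chi-square per degree of freedom was 108 against replicate 2 and 67.1 against replicate 3. Between replicates 2 and 3 it was 13.9. In the second experiment the share was 1.87, 0.816 and 1.39% in siControl, 2.20, 2.21 and 2.47% in siArp4, and 1.44, 1.32 and 1.11% in siArp4_CK666. The siArp4 libraries lay above all others of that experiment, while siControl and siArp4_CK666 overlapped. Fibril-forming genes made up 59.9% ± 0.950 (SD, n = 3) of the collagen counts in control and 50.6% ± 2.20 in CK666, and 55.3% ± 3.21 in siControl against 76.1% ± 0.496 in siArp4. Type IV genes moved the other way as a share, from 14.0% ± 0.625 in control to 22.7% ± 1.47 in CK666 and from 12.1% ± 1.63 in siControl to 7.72% ± 0.256 in siArp4.

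**Figure D1:**
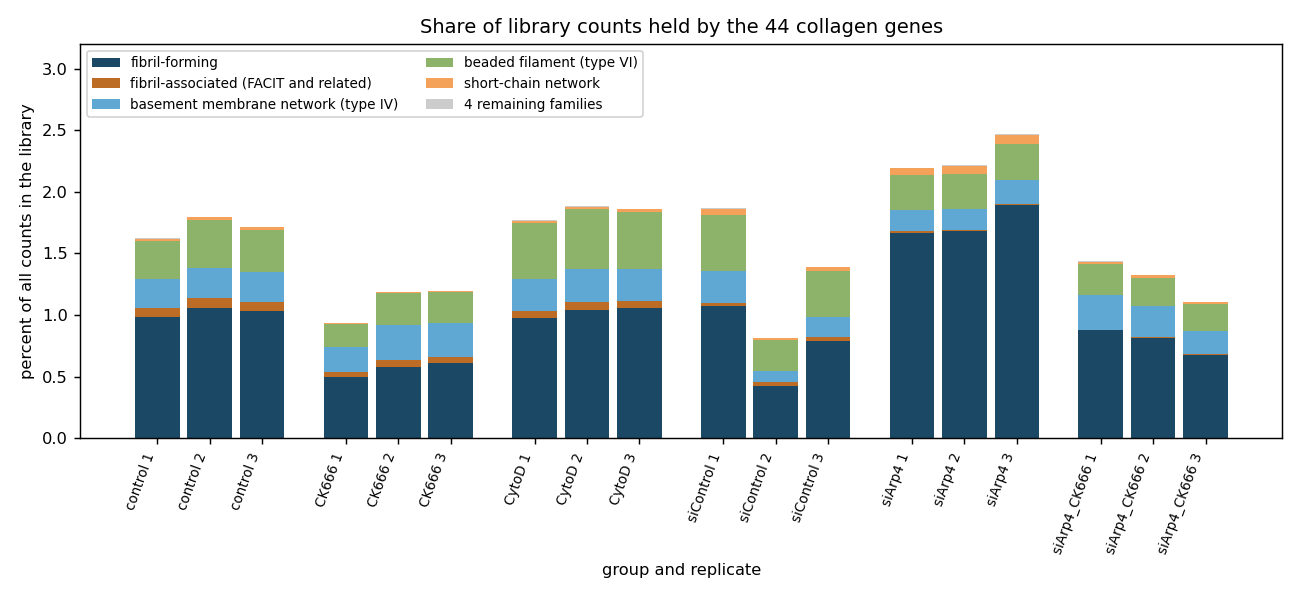
Stacked bars give the percent of all counts in each of the 18 libraries that fell on the 44 collagen genes, coloured by collagen family, with group and replicate on the horizontal axis. The CK666 bars stop between 0.937 and 1.196% and the siArp4 bars between 2.20 and 2.47%, and the dark fibril-forming segment carries most of the difference.

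Per kilobase of exon and per 1000000 counts, the 2 chains of type I collagen led in control, at 443 ± 14.9 (SD, n = 3) for Col1a1 and 389 ± 15.4 for Col1a2. They were followed by Col4a1 at 193 ± 3.10, Col6a3 at 181 ± 31.6 and Col6a1 at 176 ± 6.93, where Col6a3 lay within its spread of both neighbours in the order. Col3a1 was far lower, at 26.9 ± 1.54 in control, and ranked behind only the type I chains in siArp4, at 308 ± 15.3. The order of the type I chains rests on the length used: with the longest transcript in place of the union of all exons, the control level of Col1a2 was 903 and that of Col1a1 was 491. The order behind them rests on it too. With the longest transcript, control levels were 218 for Col4a1, 215 for Col5a2, 214 for Col6a3 and 188 for Col6a1. Comparisons of 1 gene between groups do not use a length.

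Members under 10 counts in 3 libraries are given by name only or by their highest count. Besides the 4 at 0, Col6a5, Col8a2, Col19a1, Col22a1, Col23a1, Col25a1 and Col26a1 never exceeded 5.81 counts in a library, a depth at which no change could be measured. Col4a3 reached 76.5 counts in a single CK666 library, Col17a1 43.4 in a single CytoD library, Col11a1 20.3 in its highest library and Col24a1 10.1. Col17a1 passed the test for CytoD against control and for CK666 against CytoD on that single library, and it is left out of the counts that follow. Col14a1 reached 10 counts in siArp4 libraries only, Col6a4 and Col4a6 only in CytoD and siControl, and Col4a4 only in the first experiment. These genes entered through the groups in which they were high. Col2a1 and Col9a3, cartilage chains, stayed between 5.08 and 51.2 and between 3.25 and 60.8 counts and neither rose nor fell in any comparison on all libraries. Col2a1 had 47.4, 42.9 and 52.8 in control and 11.7, 11.6 and 42.3 in CytoD (log2 -1.13, adjusted p = 0.0646), and without CytoD replicate 3 it was called lower (log2 -2.03, adjusted p = 0.000166).

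Changes are log2 fold changes of normalized counts from a DESeq2 Wald test on all genes. A gene is said to rise or fall where its Benjamini-Hochberg adjusted p over all genes tested was below 0.01, and to be called where it also changed more than 2-fold, which is the study's own rule.

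**Figure D2:**
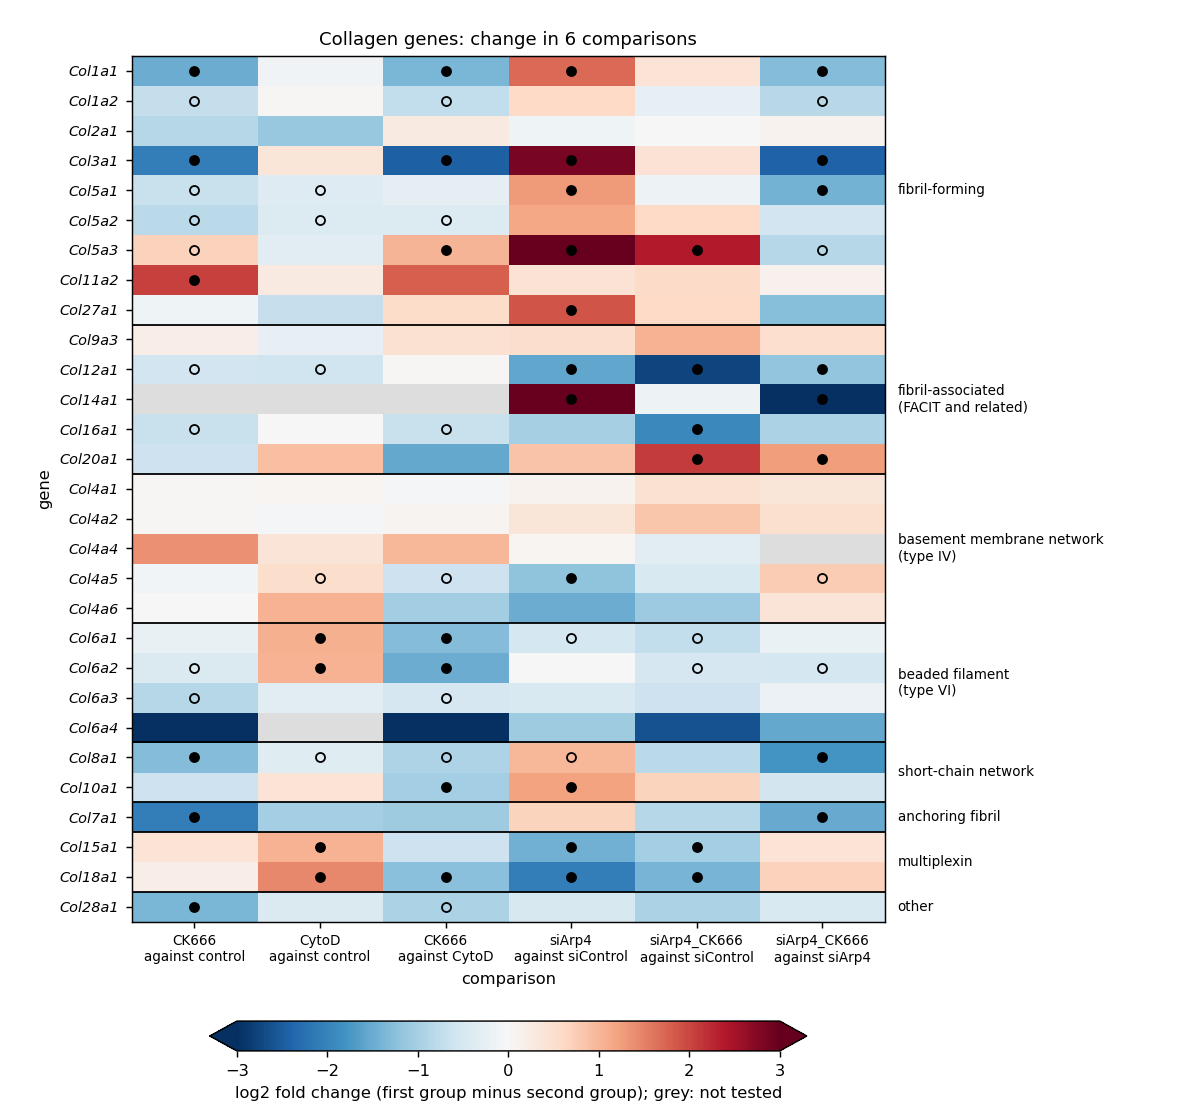
Rows are the 29 collagen genes that reached 10 counts in 3 libraries, grouped by family, and columns are the 6 pairwise comparisons. Colour is the log2 fold change of the first group named minus the second, filled dots mark called genes, open dots mark genes with adjusted p below 0.01 and a smaller change, and grey cells were not tested. The fibril-forming rows are mostly blue for CK666 against control and red for siArp4 against siControl, and Col4a1 and Col4a2 carry no dot in any column. The dark Col6a4 cells rest on at most 18.9 counts in a library and did not pass.

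With CK666, 5 of the 9 fibril-forming genes fell in untransfected MSC (Col1a1, Col1a2, Col3a1, Col5a1 and Col5a2), 2 rose (Col5a3 and Col11a2) and 2 did not pass. The other 7 falls were in other families. Of the 28 members tested, 12 fell, where 14.4% of all genes tested fell, and 2 rose, where 15.0% of all genes rose. Among them 5 were called lower (5.95% of all genes) and 1 was called higher (4.8%). The median log2 change was -0.59 over the members and 0.01 over all genes tested. Col3a1, the type III chain that forms fibrils with type I in compliant tissue, had 5229, 5323 and 5809 normalized counts in control and 1218, 1071 and 1583 in CK666. Every CK666 library lay below every control library, and the mean was 0.237 of control (log2 -2.08 ± 0.14 SE, adjusted p = 2.41e-45). Col1a1, the major chain of type I, had 58238, 61611 and 60389 in control and 19867, 21704 and 23137 in CK666. The groups did not overlap, and the level in CK666 was 0.359 of control (log2 -1.48 ± 0.09, adjusted p = 1.23e-57). Its partner chain Col1a2 had 96231, 103085 and 99802 in control and 55528, 62211 and 64016 in CK666. It fell too, but less, to 0.608 of control (log2 -0.72 ± 0.09, adjusted p = 7.3e-15).

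The type V chains, which enter type I fibrils and set their diameter, did not move together. Col5a2 fell from 28584, 29534 and 30238 to 15544, 16882 and 17678, and Col5a1 from 15273, 16237 and 15589 to 9462, 9444 and 10951. Neither pair of groups overlapped, and the log2 changes were -0.82 ± 0.08 and -0.66 ± 0.10. With all 18 libraries in 1 fit, the Col5a2 fall did not pass (adjusted p = 0.021). Col5a3 rose instead, from 1039, 1037 and 1096 in control to 1570, 1794 and 1798 in CK666. All CK666 libraries were higher, with a log2 change of 0.70 ± 0.12 (adjusted p = 1.6e-08). Col11a2, a minor fibril chain known from cartilage, was called higher at log2 2.05 ± 0.66 (adjusted p = 0.00631). Its counts of 10.6, 10.7 and 32.1 in control and 94.3, 18.4 and 108 in CK666 overlapped. The Col11a2 call was lost without control replicate 1 or 2 or without CK666 replicate 1 or 3 (adjusted p = 0.0343 to 0.0712) and by edgeR's quasi-likelihood test (adjusted p = 0.0327).

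Outside the fibril-forming family, Col8a1, a short-chain collagen of vessel walls and other matrices, went from 4866, 4671 and 4783 to 1749, 2103 and 1999. The groups were well apart (log2 -1.29 ± 0.09, adjusted p = 3.41e-42). Col7a1, the anchoring fibril collagen, went from 135, 80.8 and 107 to 24.6, 31.6 and 20.5, and Col28a1 from 132, 128 and 124 to 46.2, 54.0 and 47.4. Both were called lower, at log2 -2.08 ± 0.38 and -1.38 ± 0.24, on small counts. Col6a3, Col16a1, Col12a1 and Col6a2 fell by less, at log2 -0.85, -0.66, -0.57 and -0.43. The Col16a1 fall did not pass with all 18 libraries in 1 fit (adjusted p = 0.103). The abundant type IV chains did not pass: Col4a1 had 30334, 29099 and 29990 in control and 24255, 34359 and 33075 in CK666, and Col4a2 had 16322, 17661 and 17479 against 14952, 18816 and 19106. The groups overlapped for both genes, and the 95% intervals of the log2 change were -0.22 to 0.30 for Col4a1 and -0.19 to 0.27 for Col4a2. None of the 5 type IV genes reaching 10 counts rose or fell by DESeq2 (lowest adjusted p = 0.153) or edgeR (lowest adjusted p = 0.112), and 0 had an unadjusted p under 0.05. Without CK666 replicate 1, Col4a1 passed as a small rise (log2 0.18, adjusted p = 0.0025). Markers of other cell types moved with CK666 as well: 8 adipocyte markers summed to 506 to 543 counts in 1000000 in control and 610 to 718 in CK666, with 7 of 8 risen, and 4 smooth muscle and myofibroblast markers to 1839 to 1948 against 954 to 1318, with 1 of 4 fallen. The 10 marrow stromal markers summed to 2320 to 2480 in control and 1283 to 1576 in CK666, with 5 of the 8 tested fallen. Their part in the collagen result was not tested.

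**Figure D3:**
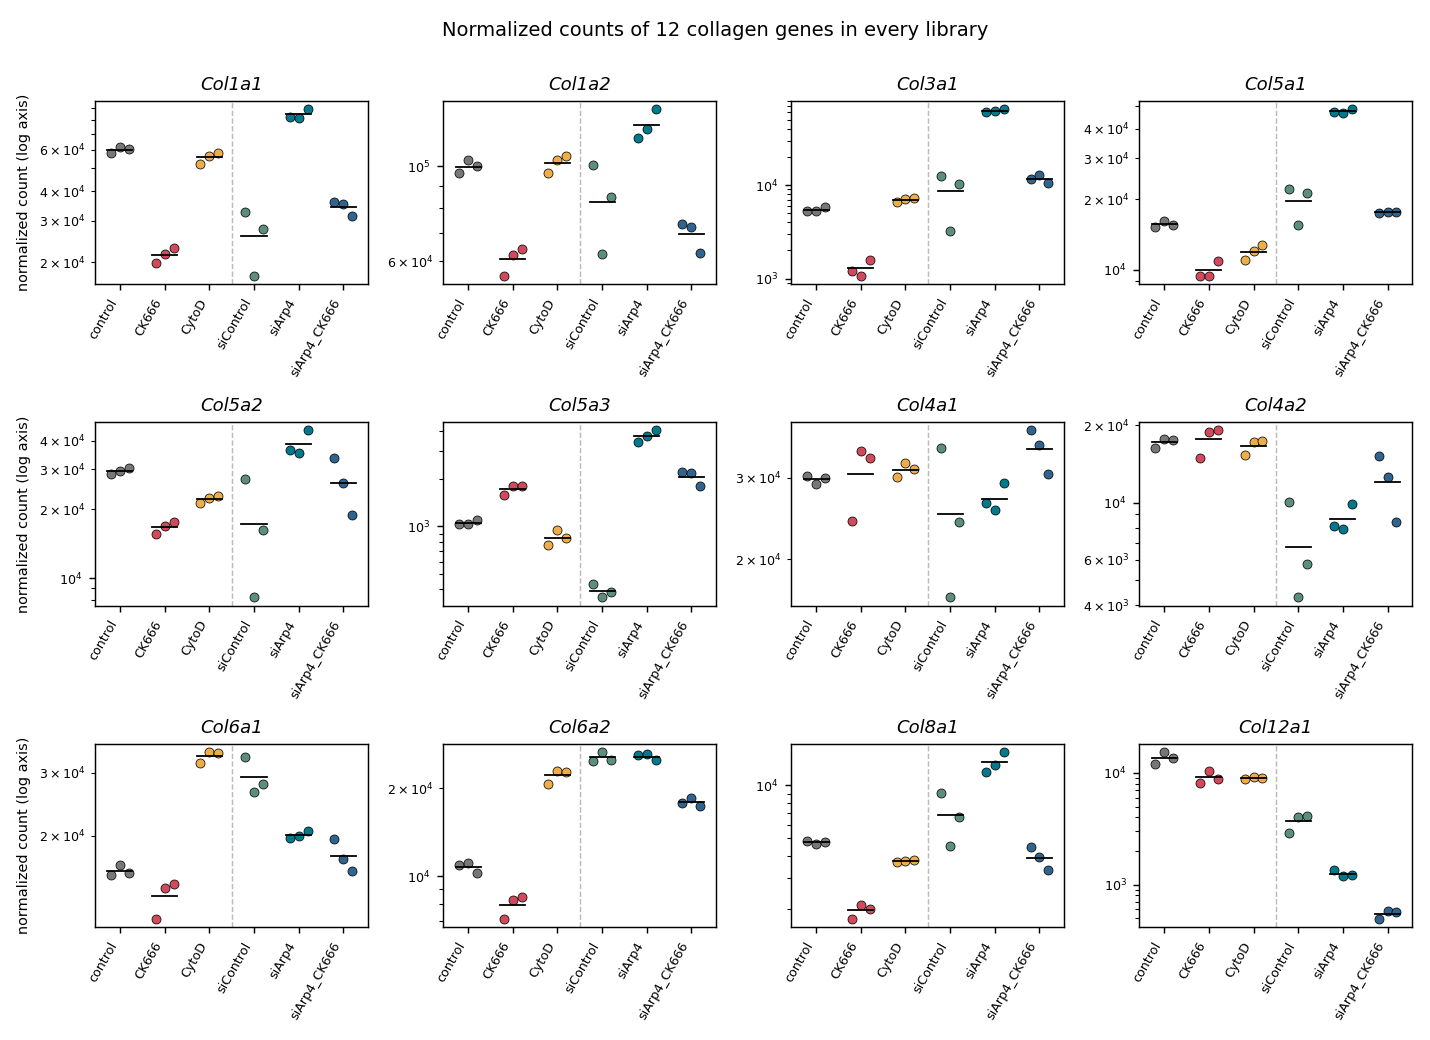
Each panel shows 1 of 12 collagen genes, with normalized counts on a log axis and the 6 groups on the horizontal axis; points are single libraries, black bars are group means over 3 libraries, and the dashed line separates the experiments, which were normalized apart. Col1a1 and Col3a1 are low in CK666 and high in siArp4, Col6a1 and Col6a2 are high in CytoD, and Col12a1 is lower in every siArp4 library than in any siControl library.

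With CytoD, Col6a1 and Col6a2, 2 of the 3 type VI genes tested, and both multiplexins rose, while neither type I chain passed. Of the 9 fibril-forming genes, 2 fell and 0 rose by DESeq2 (1 was higher at an unadjusted p under 0.05). Of the 27 members tested, 5 rose, against 13.5% of all genes, and 4 fell, against 15.7% of all genes. The 4 called higher compare with 4.76% of all genes, and no member was called lower by DESeq2 or edgeR (0 by each), where 4.26% of all genes were; 8 members were lower at an unadjusted p under 0.05. Without CytoD replicate 1, Col7a1 was called lower (log2 -1.41, adjusted p = 0.00113). The median log2 change was 0.02 over the members and 0.01 over all genes. Col6a1 and Col6a2 encode chains of type VI collagen that assemble with Col6a3 or a related chain into the filament. Col6a1 had 15518, 16538 and 15721 in control and 31880, 34248 and 34023 in CytoD, and Col6a2 had 10885, 11065 and 10241 against 20712, 22972 and 22850. All CytoD libraries lay above all controls, at 2.10 and 2.07 times the control mean (adjusted p = 2.57e-22 and 1.35e-24). Col6a3, the large chain, went the other way without passing the test, from 37045, 52192 and 44867 to 34919, 36160 and 34415 (log2 -0.35 ± 0.15, adjusted p = 0.0514). It passed as a fall without control replicate 1 (log2 -0.47, adjusted p = 0.00845) or without CK666 replicate 1, which enters only the shared spread (adjusted p = 0.00141).

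The multiplexins Col15a1 and Col18a1, basement membrane zone collagens of which Col18a1 is the source of endostatin, were called higher as well. Col18a1 had 82.2, 81.8 and 192 in control and 257, 271 and 437 in CytoD, and Col15a1 had 111, 127 and 161 against 237, 289 and 292. Neither pair of groups overlapped (log2 1.44 ± 0.34 and 1.04 ± 0.27), and the Col15a1 call was lost without control replicate 1 (adjusted p = 0.0116). Col4a5, an X-linked type IV chain, rose from 2566, 2497 and 2398 to 3600, 3764 and 3446. That is 1.45 times control (log2 0.54 ± 0.11, adjusted p = 4.54e-06), while Col4a1 and Col4a2 had log2 changes of 0.07 and -0.05. Falls were small: Col12a1 at log2 -0.60, Col5a2 at -0.41, Col5a1 at -0.39 and Col8a1 at -0.35. The fall of Col5a1 was lost without control replicate 2 or CytoD replicate 1 (adjusted p = 0.0108 and 0.0115), and that of Col8a1 without control replicate 1 or 3 or CytoD replicate 1 or 2 (adjusted p = 0.011 to 0.0158). With all 18 libraries in 1 fit, Col5a2 and Col8a1 did not pass (adjusted p = 0.332 and 0.172). Col1a1, at 52074, 56544 and 58246, and Col1a2, at 96322, 103261 and 105571, overlapped their controls, with 95% intervals of the log2 change of -0.29 to 0.07 and -0.14 to 0.20. Col3a1 was higher in all CytoD libraries, at 6606, 7033 and 7362, but did not pass (log2 0.36 ± 0.14, adjusted p = 0.0318). It passed without any 1 CK666 library (adjusted p = 0.00284 to 0.00499) and with the 2 groups alone (adjusted p = 1.08e-07). With the 2 groups alone, Col6a3 and Col5a3 passed as falls (log2 -0.34 and -0.31, adjusted p = 0.000759 and 0.00727). Adipocyte markers summed to 963 to 1049 counts in 1000000 in CytoD, with 7 of 8 risen, and smooth muscle markers to 738 to 783, with 2 of 4 fallen. Marrow stromal markers summed to 6345 to 6409, with 3 of 8 risen and 1 fallen. Osteoblast markers summed to 9870 to 10108 in control and 11483 to 11706 in CytoD, with 1 of the 5 tested called higher. Haematopoietic and macrophage markers summed to 10.9 to 13.9 against 18.1 to 19.6, with 2 of the 4 tested called higher. The part of these markers was not tested.

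The drugs were also set against each other. Of 28 members tested in CK666 against CytoD, 13 were lower in CK666 (15.0% of all genes) and 1 was higher (17.1%); 6 were called lower (6.8%) and 1 was called higher (5.14%). The median log2 difference was -0.66 for the members and -0.02 for all genes. Col3a1 differed most among the abundant members, at 0.184 of the CytoD level (log2 -2.44 ± 0.14, adjusted p = 1.63e-62). Col6a2, Col1a1, Col6a1 and Col18a1 followed at log2 -1.48, -1.37, -1.30 and -1.25, and Col10a1, a short-chain collagen of hypertrophic cartilage, at -1.02. The Col18a1 call was lost without CytoD replicate 3 (adjusted p = 0.0248) and by edgeR (adjusted p = 0.0129), and that of Col10a1 without CK666 replicate 2 or 3 or any CytoD library (adjusted p = 0.0111 to 0.0432). The Col10a1 call was also lost with the replicate block (adjusted p = 0.0163) and with the 2 groups alone (adjusted p = 0.0166). The smaller Col6a3 difference of -0.51 was lost without CK666 replicate 3 or any CytoD library (adjusted p = 0.0111 to 0.0222) and by edgeR (adjusted p = 0.013). It was also lost with all 18 libraries in 1 fit (adjusted p = 0.0735). Without CK666 replicate 2, Col11a2 was called higher in CK666 (log2 2.25, adjusted p = 0.000173). On the 9 libraries of the first experiment Col5a3 alone was higher with CK666, at 2.03 times the CytoD level (log2 1.02 ± 0.12, adjusted p = 7.19e-17). With all 18 libraries in 1 fit Col11a2 was higher too (log2 1.76, adjusted p = 0.00679). Col12a1 did not differ detectably between the drugs, with 8155, 10504 and 8896 in CK666 and 8832, 9123 and 9035 in CytoD and a 95% interval of -0.22 to 0.28.

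With Arp4 siRNA, 5 of the 9 fibril-forming genes rose (Col1a1, Col3a1, Col5a1, Col5a3 and, on few counts, Col27a1) and 0 fell by DESeq2, with none lower at an unadjusted p under 0.05. Both multiplexins fell. Of 29 members tested, 8 rose, against 12.1% of all genes, and 5 fell, against 13.3%. The called counts were 7 higher (6.76% of all genes) and 4 lower (9.58%). With Col14a1 set aside, which entered through the siArp4 group, 7 of 28 rose and 6 were called higher. The median log2 change was 0.36 over the members and -0.05 over all genes. Col5a3 had 433, 357 and 385 normalized counts in siControl and 3423, 3725 and 4034 in siArp4. The siArp4 libraries were tightly grouped and 9.51 times higher (log2 3.25 ± 0.16, adjusted p = 8.62e-86). Col3a1 had 12595, 3190 and 10326 in siControl and 60728, 62058 and 65584 in siArp4. Its siControl libraries were spread, with replicate 2 the lowest, but all lay below siArp4 (7.21-fold, log2 2.85 ± 0.41, adjusted p = 6.7e-11). Col1a1 had 32801, 17579 and 27614 in siControl and 82588, 81997 and 89298 in siArp4 (3.26-fold, log2 1.70 ± 0.24, adjusted p = 1.54e-11). Col5a1 had 22039, 15603 and 21205 against 47188, 46555 and 48631 (2.42-fold, log2 1.27 ± 0.16, adjusted p = 3.28e-13). Both genes were higher in every siArp4 library. Without siControl replicate 2 the log2 changes were 2.45 for Col3a1, 1.48 for Col1a1, 1.13 for Col5a1 and 3.18 for Col5a3, all past the threshold.

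The partner chains gave smaller values. Col1a2 had 100487, 62398 and 84524 in siControl and 116006, 122064 and 135894 in siArp4, and Col5a2 had 27260, 8237 and 16193 against 36524, 35124 and 44285. The groups did not overlap for either gene, but neither passed (log2 0.60 ± 0.21, adjusted p = 0.014, and log2 1.17 ± 0.40, adjusted p = 0.0125), and both passed without siControl replicate 1. Both also passed with all 18 libraries in 1 fit (adjusted p = 4.4e-05 for Col1a2 and 0.000236 for Col5a2). Col1a2 passed with the low-count filter (adjusted p = 0.00864) and Col5a2 with the replicate block (adjusted p = 0.00148). Col27a1 and Col14a1 were called higher on counts of at most 40.1 and 56.2 in a library, and neither was called by edgeR. The Col27a1 call was lost without siControl replicate 2 or 3 or siArp4 replicate 1 or 3 (adjusted p = 0.0141 to 0.0362), and that of Col14a1 without siControl replicate 1 or 3 or siArp4 replicate 1 or 2 (adjusted p = 0.0157 to 0.0729). Col10a1 went from 85.5, 45.3 and 65.4 to 151, 160 and 147 (log2 1.21 ± 0.28, adjusted p = 0.000105). Col8a1 went from 9107, 4536 and 6658 to 11867, 13149 and 15507, a rise at the edge of the 2-fold limit (log2 0.997 ± 0.274, adjusted p = 0.00144). It did not pass without siControl replicate 3 or siArp4 replicate 2 or 3 (adjusted p = 0.0113 to 0.0246) or by edgeR (adjusted p = 0.0168).

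Among the genes lower after Arp4 siRNA, Col12a1, a fibril-associated collagen of load-bearing tissue, had 2913, 4030 and 4084 in siControl and 1348, 1189 and 1222 in siArp4. No library overlapped (log2 -1.55 ± 0.18, adjusted p = 2.24e-15). Col18a1 went from 200, 132 and 173 to 32.0, 42.1 and 46.1, Col15a1 from 138, 184 and 145 to 63.2, 68.0 and 41.1, and Col4a5 from 2921, 1903 and 2465 to 986, 999 and 1153. These 3 were called lower at log2 -2.08 ± 0.31, -1.43 ± 0.28 and -1.22 ± 0.22. Col6a1 fell less, from 33086, 26422 and 27917 to 19682, 19906 and 20606 (log2 -0.54 ± 0.15, adjusted p = 0.00173); this was lost without siControl replicate 3 or any 1 siArp4 library (adjusted p = 0.0101 to 0.0323) and by edgeR (adjusted p = 0.0163). Col16a1 was called lower without siControl replicate 1 (log2 -1.32, adjusted p = 6.6e-05), and Col6a3 fell without siControl replicate 2 (log2 -0.75, adjusted p = 1.48e-06). Col6a2 overlapped between the groups, with 24888, 26683 and 25111 against 25961, 26253 and 24996 and a 95% interval of -0.18 to 0.20. Col4a1 and Col4a2 overlapped between the groups, with adjusted p of 0.801 and 0.44. Other markers moved along with the Arp4 siRNA: 7 osteoblast markers, led by Spp1, summed to 3391 to 4855 counts in 1000000 in siControl and 11412 to 11583 in siArp4, with 1 of the 5 tested called higher and Ibsp at 0. That sum was carried by Spp1: the median log2 change of the 5 was -2.18, with 3 of them below 0. Alpl had a mean of 7.34 normalized counts in siControl and 1.40 in siArp4, Bglap 4.94 and 0.334, and Dmp1 7.52 and 1.70, and none of these 3 passed. Marrow stromal markers summed to 2518 to 4738 in siControl and 1246 to 1340 in siArp4, with 2 of 8 fallen and 1 risen. The 8 adipocyte markers summed to 466 to 553 against 263 to 276, with 6 fallen and 3 of them called lower. Smooth muscle and myofibroblast markers summed to 853 to 1046 against 1081 to 1215, with 1 of the 3 tested called higher. Their part in the collagen result was not tested.

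When CK666 was added to Arp4-depleted cells, 5 of the 9 fibril-forming genes fell. Of these, Col1a1, Col1a2, Col3a1 and Col5a1 had also fallen with CK666 alone, Col5a3 had risen, and Col5a2, which had fallen, did not pass here (38644 ± 4935 in siArp4 and 26120 ± 7342 in siArp4_CK666, SD, n = 3). Of 28 members tested in siArp4_CK666 against siArp4, 10 fell (5.94% of all genes) and 2 rose (3.75%); 7 were called lower (4.04%) and 1 was called higher (1.61%). With Col14a1 set aside, 9 of 27 fell and 6 were called lower. The median log2 change was -0.53 for the members and 0.02 for all genes. Col3a1 had 11551, 12976 and 10570 in siArp4_CK666, far below the siArp4 values given above (log2 -2.42 ± 0.41, adjusted p = 1.18e-07). Col1a1 had 36193, 35225 and 31427, and Col5a1 had 17503, 17714 and 17672. Neither overlapped siArp4 (log2 -1.30 ± 0.24 and -1.43 ± 0.16). Col8a1 had 4462, 3914 and 3298 (log2 -1.80 ± 0.27, adjusted p = 3.01e-09) and Col12a1 had 493, 577 and 572 (log2 -1.20 ± 0.19, adjusted p = 1.07e-08). These were the called falls that held in all 9 leave-outs.

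Col7a1 and Col14a1, the other called falls, rest on small counts, and neither passed by edgeR (adjusted p = 0.0595 and 0.0579). Col7a1 was lost without any 1 siArp4 library or siArp4_CK666 replicate 1 or 2 (adjusted p = 0.0247 to 0.0815), and Col14a1 without any 1 library of either group (adjusted p = 0.0115 to 0.151). Col1a2 had 73372, 72279 and 62833 (log2 -0.84 ± 0.21, adjusted p = 0.00069), which did not pass without siArp4 replicate 2 or 3 or siArp4_CK666 replicate 2 or 3 (adjusted p = 0.0115 to 0.0252) or by edgeR (adjusted p = 0.0232). Col5a3 had 2199, 2162 and 1800 (log2 -0.86 ± 0.16, adjusted p = 1.53e-06), and Col6a2 had 17887, 18527 and 17424 (log2 -0.52 ± 0.09). Both were below every siArp4 library and fell in all leave-outs, but Col6a2 did not pass by edgeR (adjusted p = 0.0188). Col16a1, which had fallen with CK666 alone, had 1619, 1550 and 1299 in siArp4 and 599, 812 and 915 in siArp4_CK666 but did not pass. It passed as a fall with the 2 groups alone (log2 -0.935, adjusted p = 1.26e-05) and without siControl replicate 1 or 2 (adjusted p = 0.0051 and 0.00175). Col20a1, called higher at 203, 223 and 188 against 72.4, 65.9 and 121, was lost without siArp4 replicate 1 or 2 or any 1 siArp4_CK666 library (adjusted p = 0.0148 to 0.0555) and by edgeR (adjusted p = 0.0361); it shares 79 exon bases with a second annotated transcript on the same strand, so its counts are uncertain. Col4a5 rose to 2049, 1808 and 1493 (log2 0.77 ± 0.22, adjusted p = 0.00458), a result lost without siControl replicate 3, any 1 siArp4 library or siArp4_CK666 replicate 1 or 2 (adjusted p = 0.0131 to 0.0751) and by edgeR (adjusted p = 0.0363). The smooth muscle and myofibroblast markers, 4 genes led by Acta2, summed to 1081 to 1215 counts in 1000000 in siArp4 and 290 to 337 in siArp4_CK666, with 2 of the 3 tested called lower, and the adipocyte markers to 263 to 276 against 499 to 585, with 5 of 7 risen. Marrow stromal markers overlapped, at 1246 to 1340 and 1259 to 1497, with 2 of 8 fallen and 1 risen. Osteoblast markers summed to 11412 to 11583 in siArp4 and 6839 to 7409 in siArp4_CK666, with 1 of the 2 tested fallen. The part of these markers was not tested.

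Against siControl, the cells with both treatments had 1 of 9 fibril-forming genes risen, Col5a3, and 0 fallen by DESeq2, with none lower at an unadjusted p under 0.05. Of 29 members tested, 6 fell (16.0% of all genes) and 2 rose (14.2%); 4 were called lower (12.5%) and 2 were called higher (8.13%). The median log2 change was -0.25 for the members and -0.05 for all genes. Col1a1, Col1a2, Col3a1, Col5a1 and Col5a2 overlapped siControl, with log2 changes of 0.40 ± 0.24, -0.25 ± 0.21, 0.43 ± 0.41, -0.15 ± 0.16 and 0.60 ± 0.40. Col5a3 was 5.24 times siControl (log2 2.39 ± 0.16, adjusted p = 1.7e-46), and Col20a1 4.26 times. Col12a1 was 0.149 of siControl (log2 -2.75 ± 0.19, adjusted p = 2.29e-46). Col16a1, a fibril-associated member, had 1454, 4931 and 2497 in siControl and 599, 812 and 915 in siArp4_CK666 (log2 -1.93 ± 0.40, adjusted p = 8.01e-06). Its siControl libraries differed widely, with replicate 2 the highest, and without it the log2 change was -1.35 (adjusted p = 7.47e-06). Col18a1 and Col15a1 were called lower at log2 -1.38 ± 0.30 and -1.02 ± 0.28, the latter lost without siControl replicate 2 or siArp4_CK666 replicate 1 or 2 (adjusted p = 0.0131 to 0.0218) and by edgeR (adjusted p = 0.0112). Without siControl replicate 1, the count called higher was 4 in place of 2, with Col5a2 (log2 1.10, adjusted p = 0.00176) and Col4a2 (log2 1.26, adjusted p = 1.23e-05) gained. Without siControl replicate 2, Col8a1 was called lower (log2 -1.02, adjusted p = 1.05e-05). Col5a1, Col6a3 and Col4a5 fell in that leave-out (log2 -0.30, -0.915 and -0.598, adjusted p = 0.00801, 1.35e-09 and 0.00463). Col6a1 and Col6a2 fell in all 9 leave-outs, at log2 -0.808 to -0.627 and -0.532 to -0.482. Both passed by edgeR (adjusted p = 0.00329 and 0.0057), but Col6a2 did not pass with the 2 groups alone (adjusted p = 0.0118). Smooth muscle markers summed to 853 to 1046 counts in 1000000 in siControl and 290 to 337 in siArp4_CK666, with 2 of 3 called lower, and marrow stromal markers to 2518 to 4738 against 1259 to 1497, with 4 of 8 called lower. Osteoblast markers summed to 3391 to 4855 against 6839 to 7409, with 1 of the 5 tested risen and 3 below 0. Of 8 adipocyte markers 1 was called higher, and so was the 1 endothelial marker tested. Their part was not tested.

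The difference between the CK666 effects, with Arp4 siRNA minus without it, was fitted over all 18 libraries. Of 27 members tested, 2 were lower (4.0% of all genes) and 1 was higher (3.67%); 1 was called lower (2.49%) and 0 were called higher by DESeq2 or edgeR (1.86%; 3 were higher at an unadjusted p under 0.05). Col5a3 carried the called difference: CK666 raised it by log2 0.70 ± 0.12 in untransfected cells and it fell by 0.86 ± 0.16 in siArp4 cells, and the fitted difference was log2 -1.57 ± 0.16 (adjusted p = 1.48e-19). Col5a1 fell in both settings and more with Arp4 siRNA (difference -0.77 ± 0.16, adjusted p = 5.82e-05). Col4a5 differed in the other direction, at 0.85 ± 0.21 (adjusted p = 0.00134), and this was lost without siArp4_CK666 replicate 1 (adjusted p = 0.0116) and by edgeR (adjusted p = 0.0215). Without CK666 replicate 2, Col11a2 was called lower as well (log2 -2.385, adjusted p = 0.00154). Without siControl replicate 1 Col12a1 passed as lower (-0.628, adjusted p = 0.00423), and without siControl replicate 2 Col6a3 passed as higher (0.674, adjusted p = 0.00452). For Col3a1 and Col1a1 the 95% intervals of the difference were -1.23 to 0.53 and -0.29 to 0.62. The contrast without siRNA came from untransfected cells, so the effect of Arp4 siRNA on the CK666 response and that of transfection or of the experiment cannot be told apart.

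**Figure D4:**
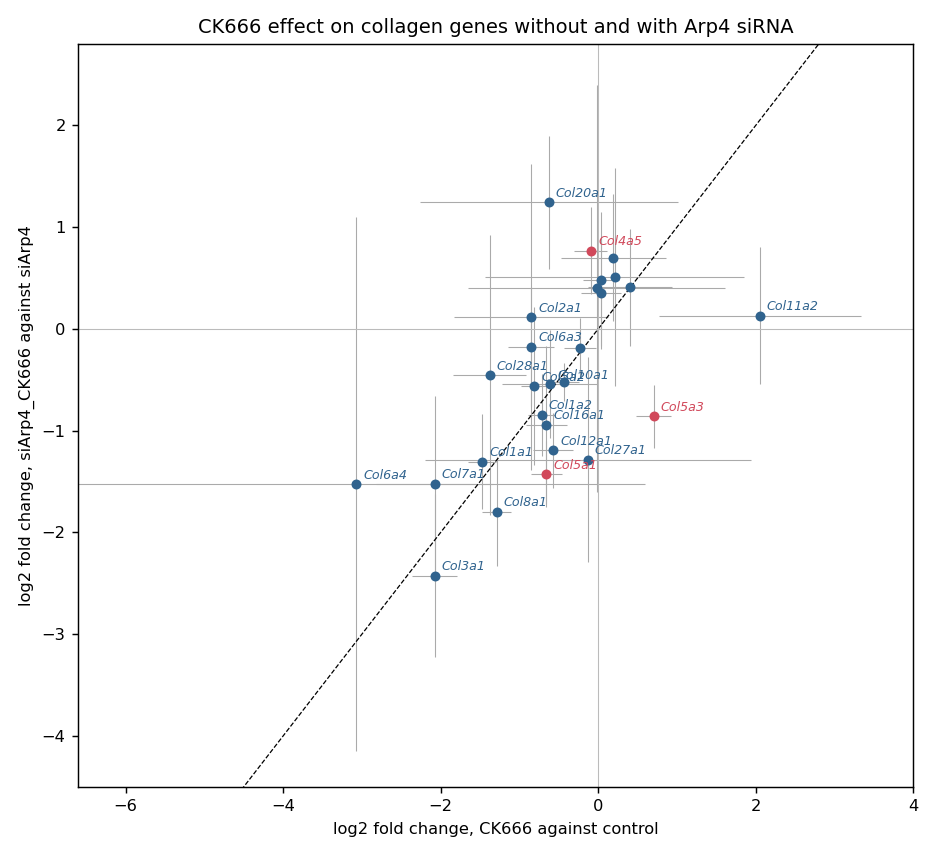
Each point is 1 of 27 collagen genes, with the log2 fold change of CK666 against control on the horizontal axis and of siArp4_CK666 against siArp4 on the vertical axis; bars are 95% intervals, the dashed line marks equal effects, and red points are the 3 genes whose effects differed at adjusted p below 0.01. Col3a1, Col1a1 and Col8a1 lie low in both directions, and Col5a3 lies at lower right, with 0.70 on the horizontal and -0.86 on the vertical axis.

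These 2 contrasts share no library. Across the 27 members tested in both, the effects had the same sign in 22, where 63.4% of all genes tested in both did, and Pearson's r was 0.60 and Spearman's rho 0.65; genes are not independent replicates, and the points share libraries within each axis. Among all genes 6.58% passed in both, 3.9% lower in both. Of the 9 members that passed in both, 8 were lower in both (Col1a1, Col1a2, Col3a1, Col5a1, Col6a2, Col7a1, Col8a1 and Col12a1) and Col5a3 had opposite signs. By edgeR, Col1a2, Col6a2 and Col7a1 did not pass in Arp4-depleted cells, as given above.

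Chains that assemble into 1 collagen type kept their transcript ratio in some comparisons and not in others. The ratio of Col1a1 to Col1a2 per kilobase was 1.15, 1.13 and 1.15 in control, 0.677, 0.661 and 0.684 in CK666 and 1.02, 1.04 and 1.04 in CytoD. In the second experiment it was 0.618, 0.533 and 0.619 in siControl, 1.35, 1.27 and 1.24 in siArp4 and 0.934, 0.923 and 0.947 in siArp4_CK666. No 2 groups overlapped within an experiment, and siControl replicate 2, which stood apart in level, was near the other siControl libraries in this ratio. The absolute ratio depends on the lengths used, while its change between groups does not. The ratio of Col6a3 to Col6a1 went from 1.02 ± 0.142 in control to 0.386 ± 0.015 in CytoD, and that of Col6a1 to Col6a2 overlapped between control (2.82 ± 0.105) and CytoD (2.86 ± 0.054). It was 3.24 ± 0.097 in CK666, above every control library, and 2.17 ± 0.327 in siControl, 1.48 ± 0.073 in siArp4 and 1.86 ± 0.188 in siArp4_CK666. Col4a1 to Col4a2 overlapped between the groups of the first experiment, at 1.54 ± 0.095, 1.53 ± 0.090 and 1.67 ± 0.072 in control, CK666 and CytoD, and lay between 2.23 and 3.69 in the libraries of the second. The ratio of Col8a1 to Col8a2 was not computed because Col8a2 was at or near 0.

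Col4a1 (chr8:11198423-11312826, minus strand) and Col4a2 (chr8:11312805-11449287, plus strand) start head to head and share 22 bases, so in an unstranded library reads from those bases cannot be told apart; neither rose or fell in any of the 6 comparisons by DESeq2 on all libraries. In siArp4_CK666 against siControl, Col4a1 (log2 0.77, adjusted p = 0.000485) and Col4a2 (given above) passed as rises without siControl replicate 1, and Col4a2 also with all 18 libraries in 1 fit (log2 0.85, adjusted p = 0.00296). Col3a1 (chr1:45311538-45349706, plus strand) and Col5a2 (chr1:45374321-45503282, minus strand) end 24614 bases apart, and their log2 changes with Arp4 siRNA were 2.85 and 1.17. Col6a2 and Col6a1 lie 85161 bases apart on the minus strand of chromosome 10, and both rose with CytoD.

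The genes that process and bind collagen were read from 6 lists of 56 genes in all. With CK666, 22 of the 47 tested fell (14.4% of all genes) and 3 rose (15.0%), with 7 called lower (5.95%) and 1 called higher (4.8%); the median log2 change was -0.39, against 0.01 over all genes. In the cross-linking list 4 of 5 fell, with Loxl4 at log2 -1.62 ± 0.19 and Lox, the founding lysyl oxidase, at -1.56 ± 0.10. All 5 tested genes of propeptide removal fell, led by Pcolce and Pcolce2, enhancers of procollagen C-proteinase, at log2 -1.31 ± 0.11 and -1.07 ± 0.32. Of 6 export genes, Creb3l1, a transcription factor of the secretory pathway in bone, was called lower at log2 -1.40 ± 0.12 and Mia2 was called higher at 1.15 ± 0.10. The fibril-binding protein Ogn and the collagen receptor subunit Itga11 were called lower at -1.13 ± 0.11 and -1.60 ± 0.24. Among 17 tested genes of modification and folding, 6 fell, 1 rose and none was called.

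CytoD changed fewer of them by more than 2-fold: 14 of 47 fell (15.7% of all genes) and 6 rose (13.5%), with Pcolce2 (log2 -1.48 ± 0.33) and the procollagen N-proteinase Adamts14 (-1.38 ± 0.17) called lower and the collagen-binding integrin subunit Itga1 (1.44 ± 0.37) called higher. These 2 and 1 called compare with 4.26% lower and 4.76% higher over all genes. The median was -0.06. Against CytoD, CK666 gave 4 called lower (6.8% of all genes; Lox, Pcolce, Ogn and Itga11, at log2 -1.46, -1.51, -1.79 and -1.98) and Mia2 called higher at 1.26 (5.14%). Arp4 siRNA gave 10 risen (12.1% of all genes) and 6 fallen (13.3%) of 48, with a median of 0.12. The 5 called higher (6.76% of all genes) were Bmp1, the procollagen C-proteinase (1.67 ± 0.10), Plod2, a lysyl hydroxylase (1.40 ± 0.27), Creb3l1 (1.60 ± 0.16), Dcn, the small proteoglycan decorin (4.07 ± 0.27), and Fn1, fibronectin (1.21 ± 0.20). The 4 called lower (9.58%) were Ogn (-1.95 ± 0.35), Itga11 (-1.22 ± 0.36), Plod3 (-1.11 ± 0.19) and P3h1, a prolyl 3-hydroxylase (-1.04 ± 0.22).

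Adding CK666 to Arp4 siRNA lowered 23 of 47 (5.94% of all genes) and raised 0 by DESeq2 (3.75%; 1 was higher at an unadjusted p under 0.05), with 12 called lower (4.04%) and a median of -0.75. Propeptide removal held 3 of them, Pcolce2, Adamts14 and Pcolce at log2 -2.55, -2.25 and -1.88, and cross-linking another 3, Loxl2, Loxl4 and Loxl3 at -2.47, -1.61 and -1.16. Dcn and Ogn (-2.62 and -1.49), Sec24d and Creb3l1 (-1.39 and -1.17) and P4ha2 and Fkbp14 (-1.43 and -1.07) made up the rest. Lox, which fell with CK666 alone, had a log2 change of -0.41 ± 0.27 here (adjusted p = 0.39), and the difference between the CK666 effects was called at 1.14 ± 0.28 (adjusted p = 0.000944); Dcn and Adamts14 differed the other way, at -4.32 ± 0.70 and -1.65 ± 0.30. The size of the Dcn difference is uncertain, since its untransfected arm is near 0, at 0.967, 4.87 and 1.03 normalized counts in control and 9.82, 7.14 and 5.58 in CK666. Against siControl, 17 of 48 fell (16.0% of all genes) and 3 rose (14.2%), with 13 called lower (12.5%), led by Ogn (-3.45), Pcolce2 (-3.11) and Loxl4 (-2.23); P3h4, Plod3 and P4ha2 led the modification genes at -1.77, -1.35 and -1.32. Dcn (1.44) and Bmp1 (1.01) were called higher (8.13%).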

How the data were processed

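RNA-seq of mouse marrow MSC was analysed in 18 libraries, 3 in each of 6 groups. The authors quantified reads with Salmon 1.2.1 against GENCODE vM25 transcripts (GRCm38) and deposited a gene table of estimated counts, which need not be whole; these were rounded to whole numbers here. Totals of 18075610 to 24733212 set the precision of each library. Groups were compared with DESeq2 1.42.0 (Wald test, two-sided, R 4.3.3) without a replicate term or shrinkage, within each experiment on all genes, with Benjamini-Hochberg adjustment and filtering at an adjusted p of 0.01; the difference between CK666 effects used all 18 libraries. Every member was accounted for, with values for those called in a comparison or averaging 100 normalized counts. The members and lists were chosen with earlier results of these data known. Levels used exon lengths of GENCODE vM21. Alternatives were edgeR 4.0.16, TMM scaling, a low-count filter, no fold minimum, a test against a 2-fold change, the 2 groups alone, all libraries in 1 fit, a replicate block and each library left out. Scripts were tested on simulated data. Replicates are separate preparations of 1 pooled line, so p-values measure the spread between preparations, not animals. No 2 replicates agreed within sampling noise.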

Additional observations from a re-analysis of the deposited data

Results flagged for a closer look

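The CK666 effect differed between untransfected and Arp4-depleted cells for 3 collagen genes, by a fitted test of the difference over 18 libraries (DESeq2). The difference in log2 effect was -1.568 for Col5a3, -0.775 for Col5a1 and 0.855 for Col4a5. Transfection and experiment differ between those settings together with Arp4, so they cannot be told apart. Groups held 3 libraries each, too few to test a single library for being far from the others.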

How the results depend on the processing

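Counts of collagen genes called higher and lower were recomputed under each alternative, and no result changed direction. With no fold minimum, CK666 against control gave 2 higher and 12 lower, CytoD 4 lower, CK666 against CytoD 13 lower, siArp4_CK666 against siArp4 2 higher, and the difference between CK666 effects 1 higher and 2 lower. With a test against a 2-fold change, the counts higher and lower were 0 and 2 for CK666, 0 higher for CytoD, 0 and 3 for CK666 against CytoD, 2 and 0 for siArp4, 1 and 1 for siArp4_CK666 against siControl, 0 and 0 for siArp4_CK666 against siArp4, and 0 lower for the difference. By edgeR, 0 were higher for CK666 against control and for siArp4_CK666 against siArp4. With the 2 groups alone, 0 were higher for CK666 against control, and with all 18 libraries in 1 fit, 0 were higher for siArp4_CK666 against siArp4. Leaving out each library gave 0 to 1 higher and 5 to 5 lower for CK666, 3 to 4 and 0 to 1 for CytoD, 0 to 1 and 4 to 6 for CK666 against CytoD, 5 to 8 and 4 to 5 for siArp4, 2 to 4 and 3 to 4 for siArp4_CK666 against siControl, 0 to 1 and 5 to 7 for siArp4_CK666 against siArp4, and 0 to 0 and 1 to 2 for the difference. Over single genes, 66 of the values with a library left out and 30 of those under other settings no longer passed at an adjusted p of 0.01, while 30 and 14 newly passed. The cause was not tested.

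Replicate numbers did not pair the samples: same-numbered libraries correlated between -0.424 and 0.204 in the first experiment and between -0.601 and 0.733 in the second, above 0.1 in 2 and 3 of 9 pairs. With the replicate block, the counts called were 1 higher and 5 lower for CK666, 4 and 0 for CytoD, 1 and 5 for CK666 against CytoD, 9 and 4 for siArp4, 2 and 4 for siArp4_CK666 against siControl, 1 and 7 for siArp4_CK666 against siArp4, and 0 and 1 for the difference. Setting Col14a1 aside, chosen after seeing the data, gave 6 higher for siArp4 and 6 lower for siArp4_CK666 against siArp4. Depth limits members with few counts, such as Col14a1 and Col27a1.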
